A study of Mus musculus with 19 samples.

Results

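Brown adipose tissue (BAT) of old mice was compared with BAT of young mice at room temperature, across all genes. The 10 RNA-seq libraries with the labels old or young and room temperature were taken from the 19 of the series, 5 of old and 5 of young mice, and the remaining 9 (4 old, 5 young) came from mice in a cold room at 4°C. The old mice were 24 months and the young mice 3 months of age. All were wild type C57BL6J males, and in both groups they were singly housed at 24°C with water but without food or bedding. The treatment protocol gives 5 h of exposure, as does the published account of the experiment, while the series design gives 24 h. BAT was taken from between the shoulder blades, and RNA was depleted of rRNA before sequencing. The labels give no litter, day or batch, and call all 10 libraries single-end except young replicate 2, which is called paired-end. The table holds 20554 genes as log2(TPM + 1), where TPM measures transcripts relative to the library total and per length. Of these, 16233 were above 0 in at least 1 of the 10 libraries and were tested, and 4321 were at 0 in all 10.

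BAT burns fatty acids and glucose to make heat. Its brown adipocytes hold uncoupling protein 1 (UCP1), which lets protons return into the mitochondrial matrix without ATP synthesis, and noradrenaline released by sympathetic nerves switches this on through the β3-adrenergic receptor. Glucose enters glycolysis by way of hexokinases, and its pyruvate enters the TCA cycle through pyruvate dehydrogenase, which pyruvate dehydrogenase kinases such as PDK4 inhibit. Brown adipocytes also make fatty acids and sterols, and the genes for both are targets of the SREBP transcription factors, whose activation INSIG proteins restrain. In rodents BAT is known to lose thermogenic capacity with age, and macrophages and other immune cells reside in it.

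The 10 libraries were those of BAT. Ucp1 stood between 1380.3 and 2698 TPM in the young and between 938 and 2178 TPM in the old libraries, while Lep, a hormone mainly of white adipocytes, did not exceed 14.9 TPM. The whole reads behind the values, recovered for 90.1% of the genes above 0, numbered 1323303 to 8388477 per young library and 806057 to 7804281 per old library. No difference between the groups was detected by exact permutation tests in recovered reads (two-sided p = 0.484) or in genes above 0 (two-sided p = 0.413), which ranged from 12661 to 14870 in young and from 12156 to 14754 in old libraries. Gm20594, a gene model with very high values, set 2 kinds of library apart. It stood at 2504 TPM in young replicate 2 and 2453 TPM in old replicate 1, and at 33784 TPM or more in the other 8. Over all genes, deviations from the group mean in these 2 libraries correlated with r = 0.57, so fits were also made with kind of library as a term of the model. Skeletal muscle markers varied within both groups, with summed levels of 19.2 to 447 TPM in young and 18.7 to 291 TPM in old libraries. Of 25 muscle markers tested, 24 had a lower mean in the old libraries (median log2 difference -0.92) and none passed the test, while 19 of the 26 in the table were at 0 in at least 1 of the 10 libraries. As in any bulk sample, fewer cells of a type and less RNA per cell cannot be told apart.

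Whole profiles of old and young BAT were not separated by the test. Euclidean distances averaged 48.7 between an old and a young library, 50.5 among old and 41.7 among young libraries. The pseudo-F, which sets distances between groups against those within, was 1.57 (one-sided p = 0.0952 by the exact permutation test over all labelings). Among the 8 libraries with high Gm20594 it was 1.89, with a one-sided p of 0.0286 by the same exact test. The first principal component, with 30.6% of the variance, did not order the libraries by age: young replicate 2 and old replicate 1 lay at -28.6 and -28.0, and old replicate 3 at 37.6.

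Among single genes, 87 were higher and 29 lower in old BAT at an adjusted p under 0.25 (limma, moderated two-sided test with Benjamini-Hochberg adjustment). These 116 calls are 0.715% of the genes tested (0.536% higher, 0.179% lower), at a threshold that accepts an expected share of false calls of up to 0.25. In this limma fit no gene reached an adjusted p under 0.05, although 1268 had an unadjusted p under 0.05, and the smallest adjusted p was 0.0648. With kind of library in the model there were 154 higher and 110 lower genes (1.63% of the genes tested, 0.949% higher and 0.678% lower), 3 of them under 0.05, and all 116 genes were called again. For 105 of the 116, no old library overlapped a young one, against 1.69% of all genes without overlap. Calls and overlap rest on the same values, so the calls favour genes without overlap. The median difference of all genes was near 0 (log2 0.0013), and 24 calls exceeded a difference of 1 on the log2 scale. The call closest inside the threshold had an adjusted p of 0.2486 and the closest outside 0.2522. The balance of higher and lower calls was not stable: 75.0% of calls were higher here, 47.4% after median centring (273 higher, 303 lower) and 50.1% after quantile normalization (391 and 390).

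The counts depended on individual libraries. Without young replicate 1, 4 higher and 1 lower gene were left, and without young replicates 2, 3, 4 and 5 the counts were 27 and 5, 8 and 8, 10 and 5, and 72 and 16. Without old replicate 1 there were 134 higher and 107 lower genes, and without old replicates 2, 3, 4 and 5 there were 48 and 11, 188 and 47, 78 and 19, and 20 and 7. Mid1ip1, Btc, Thbs1, Atp1b1 and St8sia6 were called in all 10 of these fits. In all 23 fits besides this one, each of the 116 genes kept its direction wherever it was tested. Many of these fits could not change the direction. A gene without overlap keeps it whichever library is left out, and balanced terms such as kind of library leave the difference as it was.

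**Figure D1:**
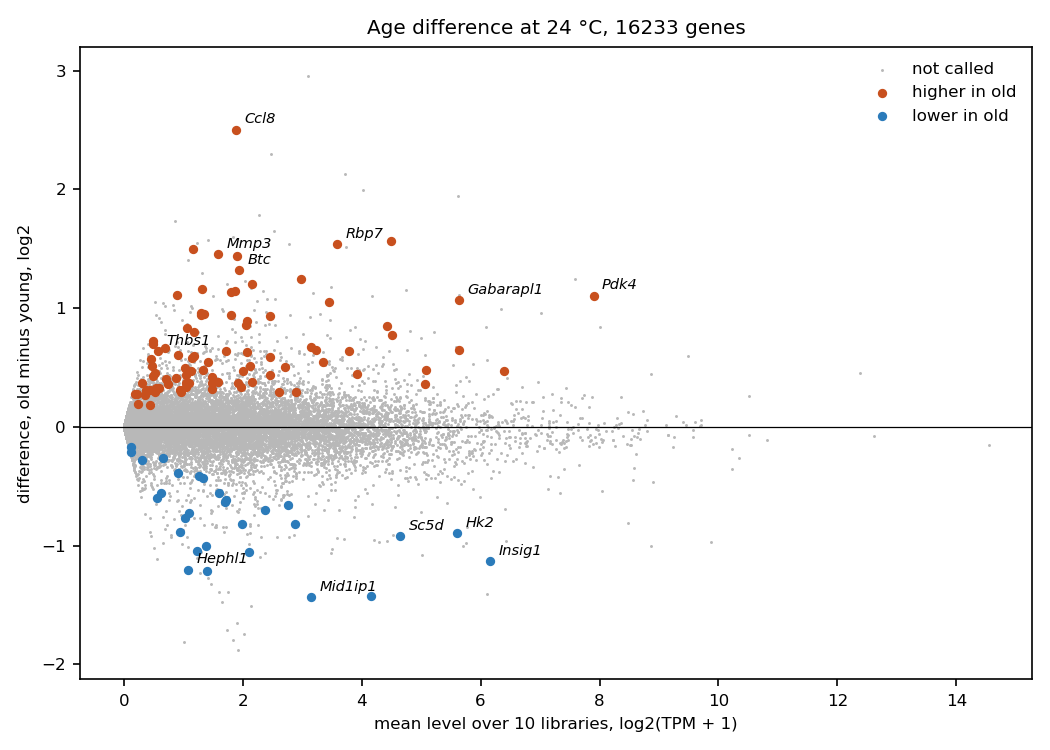
Difference between old and young libraries (vertical axis, log2 of TPM + 1) against the mean level over the 10 libraries at 24°C (horizontal axis, same scale) for 16233 genes, with the 87 genes called higher in orange, the 29 called lower in blue and all others in grey. Of the 116 calls, 32 have a mean under 1 TPM, and Pdk4, Insig1 and Hk2 are among the abundant genes called.

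In the fit without kind of library, no age difference was detected at room temperature in the core of the thermogenic programme. Ucp1 measured 1948, 2086, 1380.3, 1563 and 2698 TPM in young replicates 1 to 5 and 2033, 2178, 938, 1853 and 2091 TPM in old replicates 1 to 5. The lowest value was that of old replicate 3, and the groups overlapped, with a log2 difference of -0.11 ± 0.26 (SE, n = 5 and 5; 95% interval -0.70 to 0.48; adjusted p = 0.976). Cidea, which helps lipid droplets to fuse, averaged 833 ± 149.9 TPM in the young and 844 ± 197 TPM in the old libraries (SD), with an interval of the log2 difference from -0.37 to 0.39. Ppargc1a, a coactivator of mitochondrial genes, averaged 6.46 ± 1.45 TPM in the young and 7.16 ± 2.21 TPM in the old libraries (interval -0.39 to 0.59). The intervals were wider for Dio2, the enzyme that activates thyroid hormone (-0.88 to 1.27), and for Adrb3, the β3-adrenergic receptor (-1.09 to 0.50). Prdm16, a regulator of brown adipocyte identity, gave 0.02 ± 0.16. Cox8b, a subunit of cytochrome c oxidase, averaged 1434 ± 171 TPM in the young and 1197 ± 166 TPM in the old libraries (log2 difference -0.26 ± 0.11, adjusted p = 0.605). Elovl3 was not analysed here.

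Of the 27 thermogenic genes listed, 2 were called and both rose, with a median difference over the list of 0.0073. These were Pdk4 and Kcnk3, a potassium channel of brown adipocytes, which encode a kinase and a channel. Shares called over all genes were 0.536% higher and 0.179% lower. With kind of library in the model, 2 of the 27 were called higher and 2 lower, against 0.949% and 0.678% of all genes. Kcnk3 measured 29.7, 28.8, 24.7, 24.6 and 32.3 TPM in young replicates 1 to 5 and 37.7, 41.9, 36.8, 39.8 and 39.5 TPM in old replicates 1 to 5, so that every old library lay above every young one (log2 difference 0.48 ± 0.08, adjusted p = 0.147). None of the 69 nuclear-encoded respiratory chain subunits was called. Of these 19 had a higher and 50 a lower mean in the old libraries, and their median difference was -0.048 on the log2 scale. Mitochondrially encoded genes were not analysed here. Among 20 genes of adrenergic signalling, Adcy10, the soluble adenylyl cyclase, fell from 2.75 ± 0.686 TPM in the young to 0.914 ± 0.568 TPM in the old libraries (log2 difference -1.001 ± 0.20, adjusted p = 0.208), and the other 19 were not called.

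Genes that govern the use of glucose changed in both directions. Pdk4 (chr6:5483351-5496309 on GRCm38), the kinase that shuts off pyruvate dehydrogenase, measured 149.9, 184, 143, 149 and 190.1 TPM in young replicates 1 to 5 and 371, 293, 527, 276 and 335 TPM in old replicates 1 to 5. All old libraries stood above all young ones, and the highest was old replicate 3 (log2 difference 1.11 ± 0.17, adjusted p = 0.134). Hexokinase 2 (Hk2, chr6:82725025-82774454), which phosphorylates glucose in insulin-responsive tissues, measured 61.6, 79.2, 51.1, 62.5 and 77.3 TPM in young replicates 1 to 5 and 39.9, 35.1, 27.7, 33.8 and 38.5 TPM in old replicates 1 to 5. Here every old library lay below every young one (log2 difference -0.90 ± 0.14, adjusted p = 0.134). Hk1, the more widely expressed hexokinase, was picked out after its values were seen. It moved the other way from a lower level, from 1.59 ± 0.608 TPM in the young to 3.99 ± 1.28 TPM in the old libraries (log2 difference 0.94 ± 0.21, adjusted p = 0.24). The summed level of 16 hexokinase and glucose transporter genes, a list drawn up after the values were seen, ranged from 120.1 to 207 TPM in young and from 79.8 to 144 TPM in old libraries. Muscle markers spanned the ranges given above in the same libraries, and their part in the Hk2 difference was not tested.

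Among 22 genes of insulin signalling and glucose uptake, 3 rose and 1, Hk2, fell (of all genes, 0.536% were called higher and 0.179% lower). Irs2, an adaptor that couples the insulin receptor to PI3 kinase, measured 0.966, 1.18, 1.16, 1.71 and 1.90 TPM in young replicates 1 to 5 and 2.19, 5.33, 6.15, 2.58 and 6.12 TPM in old replicates 1 to 5 (log2 difference 1.13 ± 0.26, adjusted p = 0.24). Young replicate 5 and old replicate 1 were the closest values of the groups. Slc2a1, the transporter for basal glucose uptake, rose slightly from a low level, from 0.821 ± 0.157 TPM in the young to 1.35 ± 0.148 TPM in the old libraries (log2 difference 0.37 ± 0.07, adjusted p = 0.178). Slc2a4, the insulin-responsive transporter, had a log2 difference of -0.59 ± 0.19 (adjusted p = 0.404) and was not called. Igfbp3, which binds insulin-like growth factors, rose from 1.47 ± 0.346 TPM in the young to 4.83 ± 2.74 TPM in the old libraries (log2 difference 1.14 ± 0.26, adjusted p = 0.24). Of 13 genes of the pyruvate dehydrogenase complex, its kinases and phosphatases and the mitochondrial pyruvate carrier, listed after the values were seen, Pdk4 alone was called. With kind of library in the model, 1 of the 13 was called higher and 3 lower, against 0.949% and 0.678% of all genes. The carrier genes Mpc1 and Mpc2 gave log2 differences of -0.39 ± 0.37 and -0.37 ± 0.17 (adjusted p = 0.901 and 0.652).

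Some genes of lipid synthesis fell in old BAT. Mid1ip1 (chrX:10715013-10719690), whose product binds acetyl-CoA carboxylase and raises its activity, measured 15.6, 14.6, 11.5, 12.1 and 14.99 TPM in young replicates 1 to 5 and 5.99, 4.38, 2.84, 5.78 and 3.76 TPM in old replicates 1 to 5. The groups were well apart, and the gene had the largest fall of the genes called (log2 difference -1.44 ± 0.17, adjusted p = 0.0648). It was called in 10 of 10 fits that each left out 1 library. Insig1, which retains the SREBP escort protein in the endoplasmic reticulum, measured 101, 107, 96.8, 91.1 and 133 TPM in young replicates 1 to 5 and 62.4, 59.2, 23.2, 48.6 and 57.2 TPM in old replicates 1 to 5. Old replicate 3 was the lowest, and the highest old library stayed below the lowest young one (log2 difference -1.13 ± 0.25, adjusted p = 0.24). These were the 2 calls among 26 genes of fatty acid synthesis and triglyceride assembly (0.179% of all genes were called lower). Of the 26, 7 had a higher and 19 a lower mean in the old libraries. Their summed level showed no fall, with 8811 to 12395 TPM in young (median 10448) and 7616 to 15294 TPM in old libraries (median 10976). The median difference of the list was -0.34, against 0.0013 over all genes, and with kind of library in the model 6 of the 26 were called lower, against 0.678% of all genes in that fit.

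Some genes of sterol synthesis also fell. Of 25 genes of sterol synthesis and uptake, listed after the values were seen, 4 fell, none rose and 20 had a lower mean in the old libraries (of all 16233 genes, 0.179% were called lower and 7969 had a lower mean), with a median difference of -0.31. Insig1, already counted above among the genes of fatty acid synthesis, is 1 of the 4. Sc5d, the desaturase that introduces the C5 double bond of the sterol ring, measured 34.1, 37.8, 28.0, 32.2 and 36.6 TPM in young replicates 1 to 5 and 26.6, 17.7, 12.8, 18.9 and 13.4 TPM in old replicates 1 to 5 (log2 difference -0.92 ± 0.18, adjusted p = 0.2). The groups did not overlap, but old replicate 1 came close to the lowest young library. Sc4mol (now Msmo1), which oxidizes the C4 methyl groups, averaged 3.12 ± 0.801 TPM in the young and 1.66 ± 0.235 TPM in the old libraries (log2 difference -0.61 ± 0.13, adjusted p = 0.223). Cyp51, the lanosterol demethylase, was named after its values were seen and averaged 7.56 ± 0.957 TPM in the young and 4.50 ± 1.37 TPM in the old libraries (log2 difference -0.66 ± 0.15, adjusted p = 0.24). Old replicate 1, at 6.92 TPM, overlapped the young libraries. Srebf2, which encodes SREBP2, gave 0.06 ± 0.15 (adjusted p = 0.976). The summed level of the 25 genes was 294 to 420.5 TPM in young and 178 to 333 TPM in old libraries.

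The promoters of these 4 genes are shown because SREBP2 acts at sterol promoters together with the factor NF-Y, whose site holds CCAAT. Each sequence runs 5′ to 3′ along the gene from 250 bases before to 50 bases after the start, from RefSeq on GRCm38.p6, with CCAAT or its reverse complement ATTGG in capitals. The windows are chr5:28071162-28071461 (+ strand) for Insig1, chr9:42264251-42264550 (- strand) for Sc5d, chr5:4104648-4104947 (- strand) for Cyp51 and chr8:64733529-64733828 (- strand) for Sc4mol.
Insig1: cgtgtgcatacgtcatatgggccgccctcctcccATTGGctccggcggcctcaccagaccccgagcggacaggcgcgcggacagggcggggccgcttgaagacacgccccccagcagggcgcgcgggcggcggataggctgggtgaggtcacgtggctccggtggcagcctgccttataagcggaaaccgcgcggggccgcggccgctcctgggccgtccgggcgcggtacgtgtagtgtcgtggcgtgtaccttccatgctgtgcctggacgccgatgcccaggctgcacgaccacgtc
Sc5d: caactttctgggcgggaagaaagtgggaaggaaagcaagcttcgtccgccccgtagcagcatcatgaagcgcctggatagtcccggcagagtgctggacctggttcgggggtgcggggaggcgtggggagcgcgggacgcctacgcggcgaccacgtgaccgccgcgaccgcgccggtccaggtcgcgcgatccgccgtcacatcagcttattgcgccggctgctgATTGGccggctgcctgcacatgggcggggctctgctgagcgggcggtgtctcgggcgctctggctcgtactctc
Cyp51: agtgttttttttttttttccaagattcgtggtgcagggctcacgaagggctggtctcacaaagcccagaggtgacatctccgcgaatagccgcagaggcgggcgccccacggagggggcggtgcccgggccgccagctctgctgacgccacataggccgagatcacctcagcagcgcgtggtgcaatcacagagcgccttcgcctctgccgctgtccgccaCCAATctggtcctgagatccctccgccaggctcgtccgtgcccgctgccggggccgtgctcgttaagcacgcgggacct
Sc4mol: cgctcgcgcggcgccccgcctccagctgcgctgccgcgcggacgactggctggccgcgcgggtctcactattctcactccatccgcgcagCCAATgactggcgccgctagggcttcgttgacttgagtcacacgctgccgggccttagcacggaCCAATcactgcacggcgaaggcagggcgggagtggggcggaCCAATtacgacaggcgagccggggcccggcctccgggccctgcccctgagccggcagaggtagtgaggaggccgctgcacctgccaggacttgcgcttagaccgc
All 4 windows held CCAAT on either strand, with 3 matches in Sc4mol and 1 in each of the others. The same letters occur in 37.4% of the 32851 promoters of this length, so their presence in 4 genes is a description only. The sterol element was searched only as the exact letters TCACNCCAC on either strand. These were in none of the 4 and are in 1.24% of all promoters. Other forms of the element were not searched, so the absence of an SREBP site is not shown.

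Single genes of fatty acid use and storage rose. Acsm3, a mitochondrial enzyme that activates medium-chain fatty acids and is on no list, was named after its values were seen. It measured 15.8, 20.6, 13.3, 16.0 and 16.99 TPM in young replicates 1 to 5 and 32.8, 26.5, 31.0, 26.0 and 27.9 TPM in old replicates 1 to 5, with no overlap (log2 difference 0.77 ± 0.11, adjusted p = 0.109). Plin4, a coat protein of lipid droplets, was the 1 call among 19 genes of lipolysis and lipoprotein uptake (0.536% of all genes called higher). Its levels were 36.4, 47.4, 34.1, 34.3 and 44.1 TPM in young replicates 1 to 5 and 61.6, 54.1, 58.4, 59.2 and 76.9 TPM in old replicates 1 to 5 (log2 difference 0.65 ± 0.12, adjusted p = 0.174). The median of this list was near 0 (0.036), as was that of 24 genes of fatty acid oxidation (0.027).

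**Figure D2:**
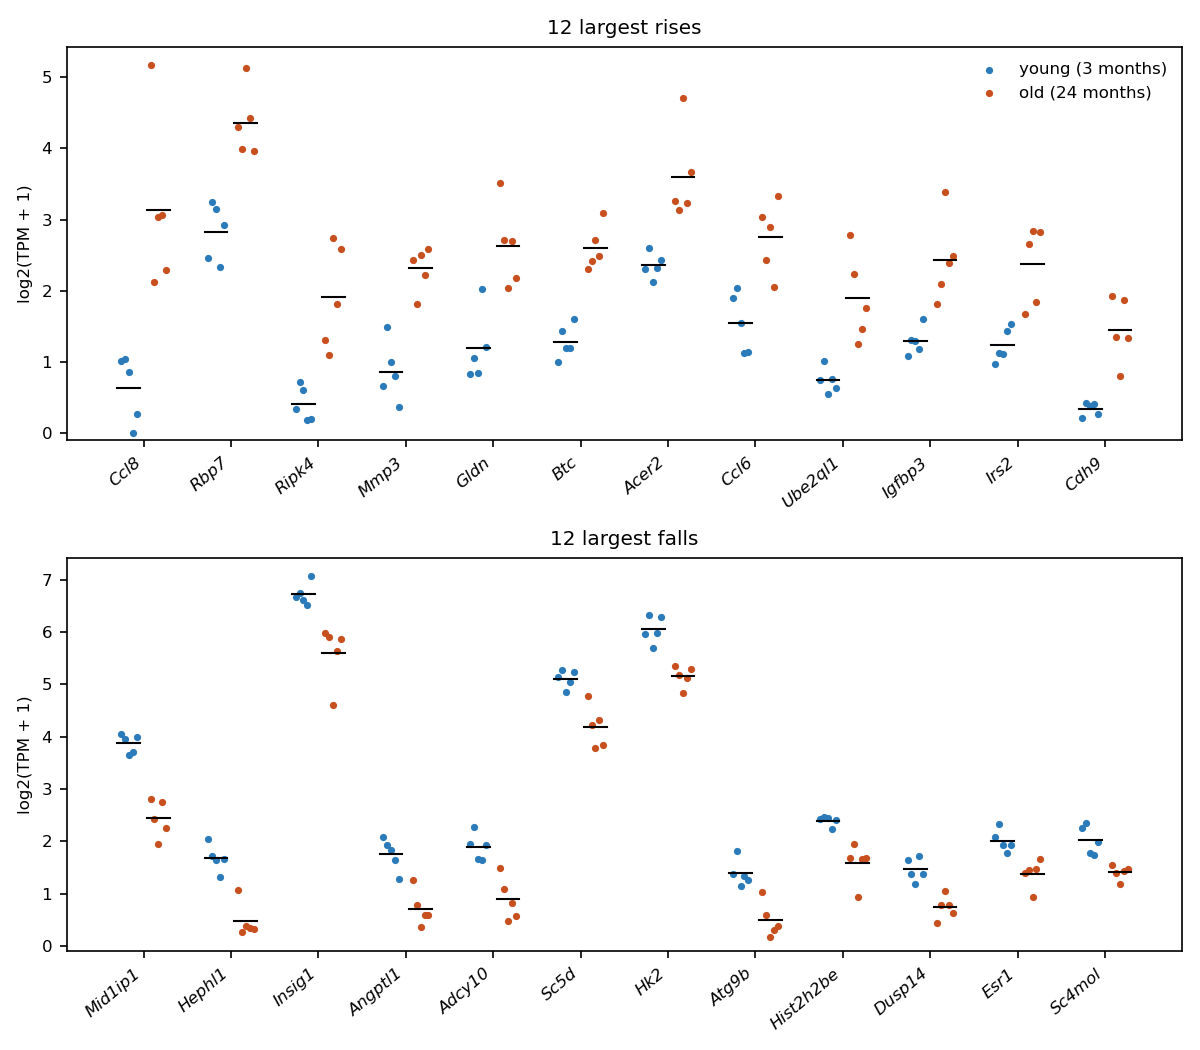
Level of each of the 12 largest rises (top) and 12 largest falls (bottom) in every library at 24°C, as log2(TPM + 1), with young libraries in blue, old libraries in orange and group means as black bars. By the way the genes were chosen, no old point overlaps a young one, and Ccl8 has the largest rise (2.50) and Mid1ip1 the largest fall (-1.44).

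The largest rise was that of Ccl8 (chr11:82115185-82116799), a chemokine that attracts monocytes and other leukocytes. It measured 1.01, 1.06, 0.805, 0 and 0.202 TPM in young replicates 1 to 5 and 34.9, 3.35, 7.21, 7.40 and 3.91 TPM in old replicates 1 to 5. Every old library lay above every young one, and old replicate 1 was far above the rest (log2 difference 2.50 ± 0.54, adjusted p = 0.223). Recovered reads were few, 0 to 4 per young and 8 to 77 per old library, so the size of the change is poorly set. A fit by limma voom on these reads, chosen after seeing the data, gave a difference of 3.45 (adjusted p = 0.0771). Ccl6, a macrophage chemokine, measured 2.74, 3.09, 1.91, 1.18 and 1.21 TPM in young replicates 1 to 5 and 7.23, 4.42, 6.45, 3.16 and 9.06 TPM in old replicates 1 to 5 (log2 difference 1.20 ± 0.27, adjusted p = 0.24). Its highest young library, replicate 2, nearly reached the lowest old one, replicate 4. Ccl9, named after its values were seen, averaged 0.819 ± 0.405 TPM in the young and 2.49 ± 0.790 TPM in the old libraries (log2 difference 0.94 ± 0.18, adjusted p = 0.186). Ccl8, Ccl6 and Ccl9 were the 3 genes called of 31 chemokines tested, a list drawn up after the values were seen, and none fell. Of all genes tested, 0.536% were called higher. Ccl2 gave 0.39 ± 0.32 and Ccl5 0.15 ± 0.19 (adjusted p = 0.877 and 0.936).

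Of 22 macrophage markers 1 was called, as a higher gene (0.536% of all genes). In all, 20 of them had a higher mean in the old libraries, with a median difference of 0.30. Their summed level was 111, 98.8, 79.5, 52.1 and 49.3 TPM in young replicates 1 to 5 and 180, 109, 102, 119 and 147 TPM in old replicates 1 to 5, so the groups overlapped. Fcgr3, a low-affinity receptor for IgG, was the marker called. It measured 2.31, 1.64, 1.66, 1.22 and 1.46 TPM in young replicates 1 to 5 and 3.87, 2.78, 2.73, 2.45 and 3.94 TPM in old replicates 1 to 5 (log2 difference 0.64 ± 0.13, adjusted p = 0.223). With kind of library in the model, 4 of the 22 were called higher, against 0.949% of all genes in that fit, and 8 of the 22 were at 0 in at least 1 library. A further 3 genes were named after their values were seen. Fcgr2b, the inhibitory IgG receptor, averaged 0.814 ± 0.0970 TPM in the young and 1.74 ± 0.437 TPM in the old libraries (log2 difference 0.58 ± 0.10, adjusted p = 0.161). Tlr4, the receptor for lipopolysaccharide, averaged 2.40 ± 0.221 TPM in the young and 3.71 ± 0.436 TPM in the old libraries (log2 difference 0.47 ± 0.07, adjusted p = 0.134). Ms4a6c, a membrane protein of myeloid cells, averaged 0.585 ± 0.335 TPM in the young and 1.84 ± 0.654 TPM in the old libraries (log2 difference 0.84 ± 0.19, adjusted p = 0.24). The part of macrophages in the chemokine values was not tested. None of 22 T and NK cell, 15 B and plasma cell, 9 MHC class II, 42 interferon response and 18 complement genes was called, and their median differences were 0.025, 0.068, 0.086, -0.10 and 0.15.

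Some enzymes of sphingolipid metabolism rose in old BAT. Sphingolipids are membrane lipids built on ceramide, and this list too was drawn up after the values were seen. Of 34 enzymes tested 4 rose, none fell and 23 had a higher mean in the old libraries, where 0.536% of all genes tested were called higher and 8264 of 16233 had a higher mean. Acer2, a ceramidase of the Golgi apparatus, measured 3.96, 5.04, 3.37, 3.99 and 4.38 TPM in young replicates 1 to 5 and 8.61, 7.77, 25.1, 8.39 and 11.7 TPM in old replicates 1 to 5 (log2 difference 1.24 ± 0.28, adjusted p = 0.24). Old replicate 3 was the highest, and all old libraries lay above the young ones. Cers4, a ceramide synthase, averaged 0.794 ± 0.288 TPM in the young and 2.52 ± 0.825 TPM in the old libraries (log2 difference 0.96 ± 0.17, adjusted p = 0.161). Sgms2, which turns ceramide into sphingomyelin, averaged 0.171 ± 0.0796 TPM in the young and 0.685 ± 0.254 TPM in the old libraries (log2 difference 0.52 ± 0.10, adjusted p = 0.186) on 1 to 22 reads per young and 7 to 81 per old library. St3gal5, which makes the ganglioside GM3, averaged 6.77 ± 1.71 TPM in the young and 15.6 ± 5.68 TPM in the old libraries with overlapping libraries (log2 difference 1.05 ± 0.24, adjusted p = 0.245). The summed level of the enzymes was 116 to 163 TPM in young and 171 to 205 TPM in old libraries.

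Some secreted factors and matrix genes rose at low levels. Btc (chr5:91357261-91402994) encodes betacellulin, a ligand of the EGF receptor, and measured 0.991, 1.69, 1.29, 1.29 and 2.05 TPM in young replicates 1 to 5 and 3.95, 4.32, 5.58, 4.60 and 7.56 TPM in old replicates 1 to 5. The lowest old library stood well above the highest young one (log2 difference 1.32 ± 0.17, adjusted p = 0.0648), and the gene was called in 10 of 10 fits without 1 library. Thbs1, thrombospondin 1, a matrix protein that activates TGF-β and curbs vessel growth, measured 0.256, 0.178, 0.226, 0.0871 and 0.255 TPM in young replicates 1 to 5 and 0.954, 0.921, 0.996, 0.545 and 0.944 TPM in old replicates 1 to 5 (log2 difference 0.64 ± 0.08, adjusted p = 0.0648). Its old values were nearly equal apart from replicate 4, and it rested on 2 to 30 reads per young and 7 to 109 per old library. Thbs1 was the 1 call among 45 collagens and other matrix genes (0.536% of all genes were called higher), whose median difference was -0.043. Mmp3, stromelysin 1, which cleaves matrix proteins, measured 0.576, 1.81, 0.992, 0.736 and 0.287 TPM in young replicates 1 to 5 and 4.38, 2.51, 4.68, 3.68 and 5.03 TPM in old replicates 1 to 5 (log2 difference 1.45 ± 0.22, adjusted p = 0.134). Gldn, gliomedin, a matrix protein of the nodes of myelinated nerve, averaged 1.40 ± 0.954 TPM in the young and 5.62 ± 2.92 TPM in the old libraries (log2 difference 1.44 ± 0.32, adjusted p = 0.235), and young replicate 4, at 3.07 TPM, was close to old replicate 3, at 3.11 TPM. Nrn1, neuritin, was the 1 call among 13 Schwann cell and nerve markers (log2 difference 0.50 ± 0.09, adjusted p = 0.161).

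Mmp3 and Igfbp3, both secreted factors, were also the 2 calls among 26 genes of senescence and p53 targets (0.536% of all genes called higher). Cdkn2a, which encodes the cell cycle inhibitor p16, was listed at 0 in 8 of the 10 libraries and reached 0.117 TPM in young replicate 3 and 0.0449 TPM in old replicate 5, so no difference was detectable at this depth. Cdkn1a, which encodes p21, measured 1.52, 2.68, 2.53, 1.78 and 3.14 TPM in young replicates 1 to 5 and 1.77, 4.26, 45.9, 8.08 and 17.2 TPM in old replicates 1 to 5. Old replicate 1 lay within the young range and old replicate 3 far above it (log2 difference 1.65 ± 0.67, adjusted p = 0.577), so the gene was not called. None of 43 cell cycle genes was called.

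Rbp7 and Ripk4 also had large rises. Rbp7, a retinol-binding protein of capillary endothelium, measured 4.51, 8.48, 7.83, 4.05 and 6.62 TPM in young replicates 1 to 5 and 18.7, 14.9, 34.1, 20.4 and 14.7 TPM in old replicates 1 to 5 (log2 difference 1.54 ± 0.26, adjusted p = 0.154). It was the 1 call among 22 endothelial markers (0.536% of all genes were called higher). Of these markers, 9 had a higher and 13 a lower mean in the old libraries. Ripk4, a kinase known from epithelial differentiation, measured 0.262, 0.650, 0.520, 0.134 and 0.144 TPM in young replicates 1 to 5 and 1.47, 1.14, 5.66, 2.51 and 5.005 TPM in old replicates 1 to 5 (log2 difference 1.499 ± 0.32, adjusted p = 0.223). Its old libraries differed among themselves, with replicates 3 and 5 highest. Cdh9, a cadherin, averaged 0.267 ± 0.0778 TPM in the young and 1.85 ± 0.864 TPM in the old libraries (log2 difference 1.12 ± 0.20, adjusted p = 0.161), and Ube2ql1, a ubiquitin-conjugating enzyme, averaged 0.679 ± 0.207 TPM in the young and 3.03 ± 1.83 TPM in the old libraries (log2 difference 1.16 ± 0.27, adjusted p = 0.245). Cdh9 rested on 4 to 13 reads per young and 9 to 93 per old library.

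The other genes that fell included receptors and enzymes of several kinds. Esr1, the oestrogen receptor α, measured 3.23, 3.9995, 2.81, 2.44 and 2.81 TPM in young replicates 1 to 5 and 1.64, 1.73, 0.905, 1.77 and 2.15 TPM in old replicates 1 to 5 (log2 difference -0.63 ± 0.14, adjusted p = 0.24). The groups did not overlap, and old replicate 3 was the lowest. Kit, the receptor for stem cell factor, averaged 3.18 ± 1.17 TPM in the young and 0.780 ± 0.447 TPM in the old libraries with overlapping libraries, young replicate 3 being low (log2 difference -1.21 ± 0.25, adjusted p = 0.22). Hephl1, a copper-dependent ferroxidase, measured 3.13, 2.29, 2.14, 1.51 and 2.15 TPM in young replicates 1 to 5 and 1.10, 0.207, 0.300, 0.270 and 0.25003 TPM in old replicates 1 to 5 (log2 difference -1.20 ± 0.18, adjusted p = 0.133). Of its old libraries only replicate 1 was near the young ones, and with 3 to 25 reads the old values are imprecise. Angptl1, a secreted protein of the angiopoietin-like family, averaged 2.43 ± 0.693 TPM in the young and 0.675 ± 0.426 TPM in the old libraries (log2 difference -1.04 ± 0.19, adjusted p = 0.174). Dusp14, a phosphatase of MAP kinases, averaged 1.78 ± 0.429 TPM in the young and 0.686 ± 0.269 TPM in the old libraries (log2 difference -0.72 ± 0.13, adjusted p = 0.174). Atg9b, a membrane protein of early autophagosomes, averaged 1.65 ± 0.497 TPM in the young and 0.450 ± 0.366 TPM in the old libraries (log2 difference -0.89 ± 0.18, adjusted p = 0.198). Hist2h2be, a histone H2B gene, averaged 4.26 ± 0.306 TPM in the young and 2.07 ± 0.710 TPM in the old libraries (log2 difference -0.81 ± 0.16, adjusted p = 0.212), and Dixdc1, a Wnt signalling protein, averaged 1.70 ± 0.463 TPM in the young and 0.604 ± 0.380 TPM in the old libraries with overlapping libraries (log2 difference -0.77 ± 0.17, adjusted p = 0.24).

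Chaperones gave 2 calls among 26, and both rose (0.536% of all genes were called higher). Hsp90ab1, the constitutive cytosolic HSP90, measured 71.4, 84.6, 62.5, 61.7 and 76.3 TPM in young replicates 1 to 5 and 116, 91.8, 96.1, 90.8 and 100.2 TPM in old replicates 1 to 5 (log2 difference 0.47 ± 0.10, adjusted p = 0.223), with old replicate 1 highest. Bag3, a co-chaperone of HSP70, averaged 3.53 ± 0.526 TPM in the young and 5.86 ± 1.18 TPM in the old libraries (log2 difference 0.59 ± 0.12, adjusted p = 0.219). The list as a whole had a median difference of -0.034, with 11 higher and 15 lower means. No gene was called among 19 of the circadian clock, 23 immediate early genes, 19 of the integrated stress response, 25 NRF2 and antioxidant genes, 21 secreted adipocyte factors or 71 cytosolic ribosomal proteins. Adipoq, which encodes adiponectin, averaged 428 ± 83.4 TPM in the young and 395 ± 47.8 TPM in the old libraries (log2 difference -0.10 ± 0.13, 95% interval -0.40 to 0.19). Lep averaged 7.65 ± 4.92 TPM in the young and 1.96 ± 1.52 TPM in the old libraries and was not called (log2 difference -1.505 ± 0.52, adjusted p = 0.454), although its unadjusted p was 0.0164. Fibroblast, mural and white adipocyte depot markers (17, 10 and 9 genes tested), 6 red blood cell markers and 13 RNAs without a poly(A) tail gave no call either. The red blood cell markers had a median difference of 0.39, with 5 of 6 higher in the old libraries, and their summed level was 39.7 to 59.6 TPM in young and 31.2 to 117 TPM in old libraries.

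**Figure D3:**
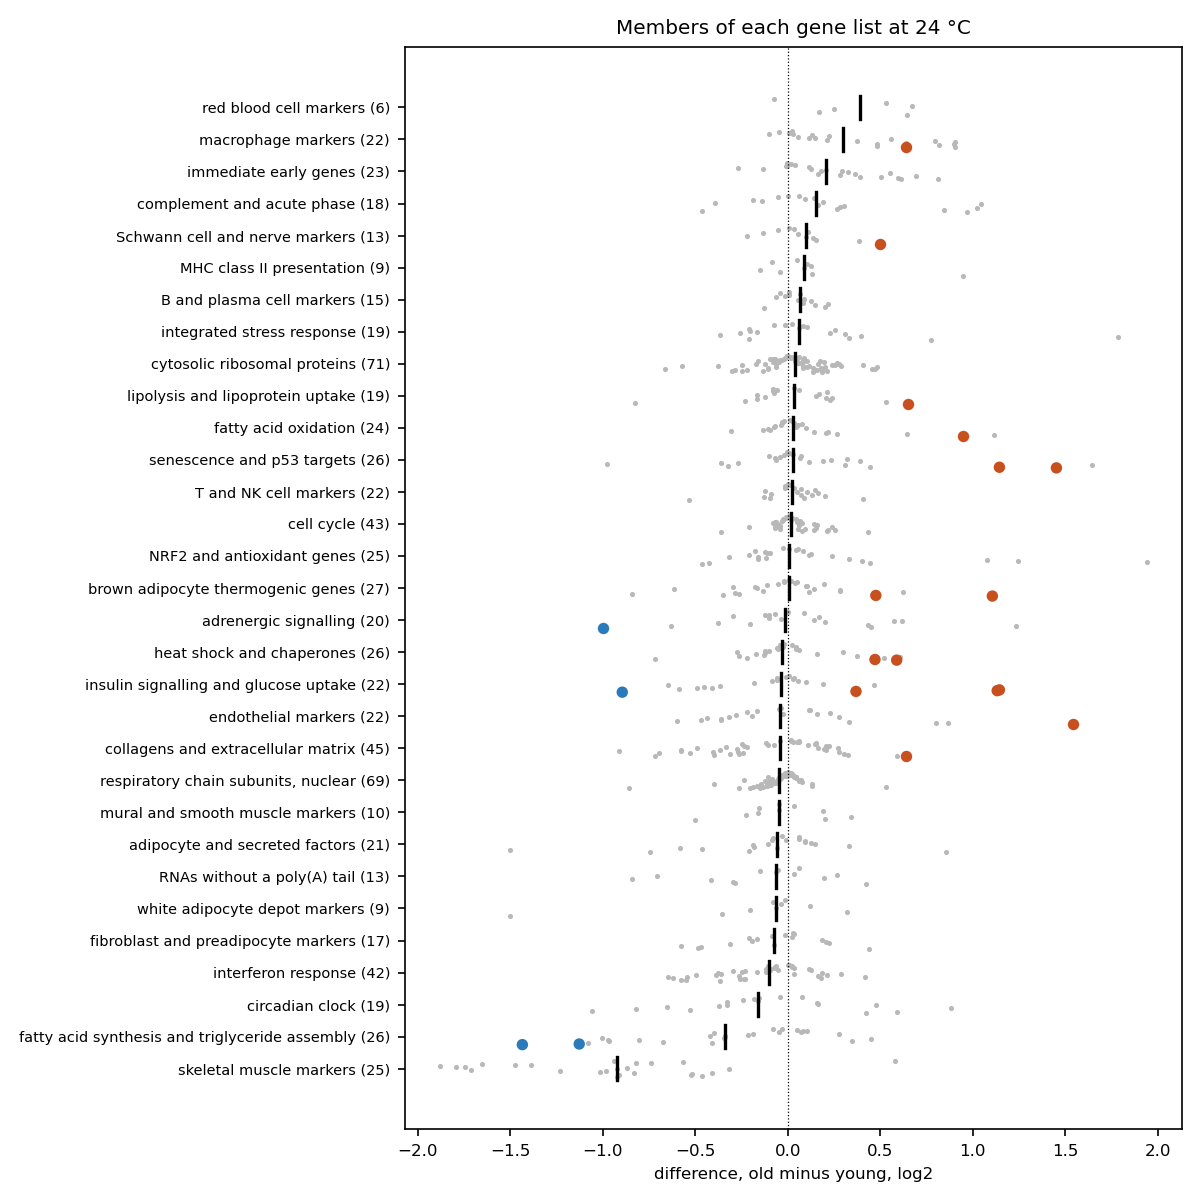
Difference between old and young libraries at 24°C (horizontal axis, log2) for the members of each gene list (rows, with the number tested in parentheses), ordered by the median, drawn as a black bar. Grey points did not pass the test, large orange points were called higher and large blue points lower, and the skeletal muscle list has the lowest median (-0.92).

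The same age contrast was available in the cold, in 4 old and 5 young libraries that are all distinct from those above. In these, 8 genes were higher and 18 lower in old mice (limma, adjusted p under 0.25; 0.161% of 16134 genes), and with kind of library in the model the counts were 226 and 4674. Both libraries with low Gm20594 among these 9 were from old mice, so in the cold the kind of library and age are partly confounded. Old replicate 4 in the cold had the fewest genes above 0 of the series (11634), on 929137 recovered reads. Its part in the cold values was not tested. Of the 87 genes called higher at room temperature, 62 (71.3%) were also higher in old mice in the cold, against 48.3% of all 15410 genes tested at both temperatures. Of the 29 called lower, 11 (37.9%) were lower in the cold, against 51.7% of all genes. The median difference in the cold was 0.15 for the former and 0.047 for the latter, where it had been 0.54 and -0.72 at room temperature. The genes were chosen by their room temperature differences, which favours larger values there.

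Ccl8 was the only gene called in both contrasts. In the cold it measured 0.549, 0.407, 0.622, 0.227 and 0.969 TPM in young replicates 1 to 5 and 9.12, 13.4, 6.48 and 6.42 TPM in old replicates 1 to 4, again with no overlap (log2 difference 2.63 ± 0.22, limma adjusted p = 0.0189). Ube2ql1 was higher by 1.83 ± 0.41 and Fcgr3 by 1.001 ± 0.20 without being called (adjusted p = 0.371 and 0.327). Pdk4, Hk2, Insig1 and Sc5d gave 0.23 ± 0.42, 0.06 ± 0.36, 0.46 ± 0.50 and 0.55 ± 0.32 in the cold, all at an adjusted p of 0.999.

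The age difference itself differed between temperatures in 18 genes (interaction of age and temperature over 19 libraries, limma, adjusted p under 0.25; 0.106% of 16957 genes). Of the 116 genes called at room temperature, 5 were among them, all called lower there. The room temperature differences that chose the 116 also enter the interaction, so this choice favours an interaction among them. Mid1ip1 averaged 13.7 ± 1.86 TPM in young and 4.55 ± 1.34 TPM in old mice at 24°C, and 1.32 ± 0.268 and 1.52 ± 0.963 TPM at 4°C (SD). The age difference was thus present at room temperature and near 0 in the cold, where both ages were low (interaction 1.48 ± 0.31 on the log2 scale, adjusted p = 0.243). Kit averaged 0.189 ± 0.0800 TPM in young and 0.350 ± 0.144 TPM in old mice in the cold (interaction 1.39 ± 0.29). Atg9b, Dusp14 and Dixdc1 had interactions of 1.03 ± 0.22, 0.93 ± 0.18 and 0.97 ± 0.21, at the same adjusted p. With kind of library in the model, Atg9b kept its call (adjusted p = 0.153), and Mid1ip1, Kit, Dusp14 and Dixdc1 were between 0.265 and 0.279. All 5 genes stood lower in the cold in young mice.

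**Figure D4:**
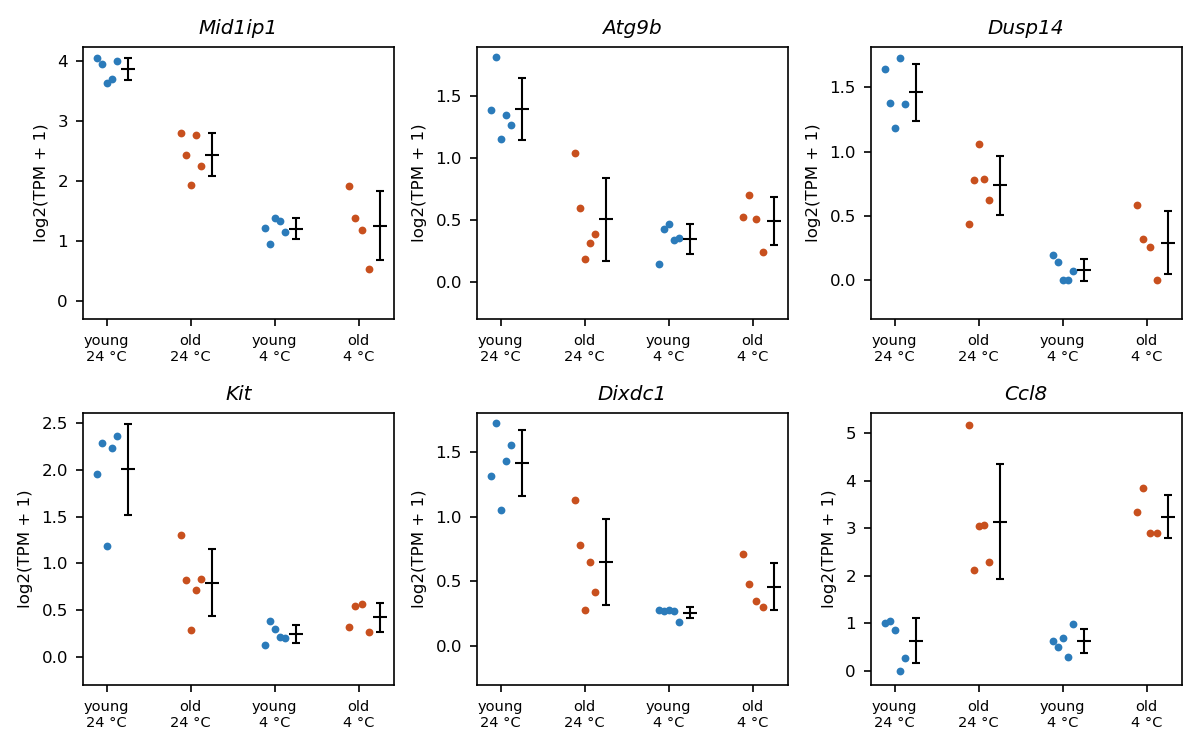
Levels of the 5 genes named for their interaction and of Ccl8 in all 19 libraries, as log2(TPM + 1), with young mice in blue, old mice in orange and mean ± SD beside the points. The 5 genes differ by age at 24°C and are low at both ages at 4°C, and Ccl8 is higher in the old libraries at both temperatures.

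**Figure D5:**
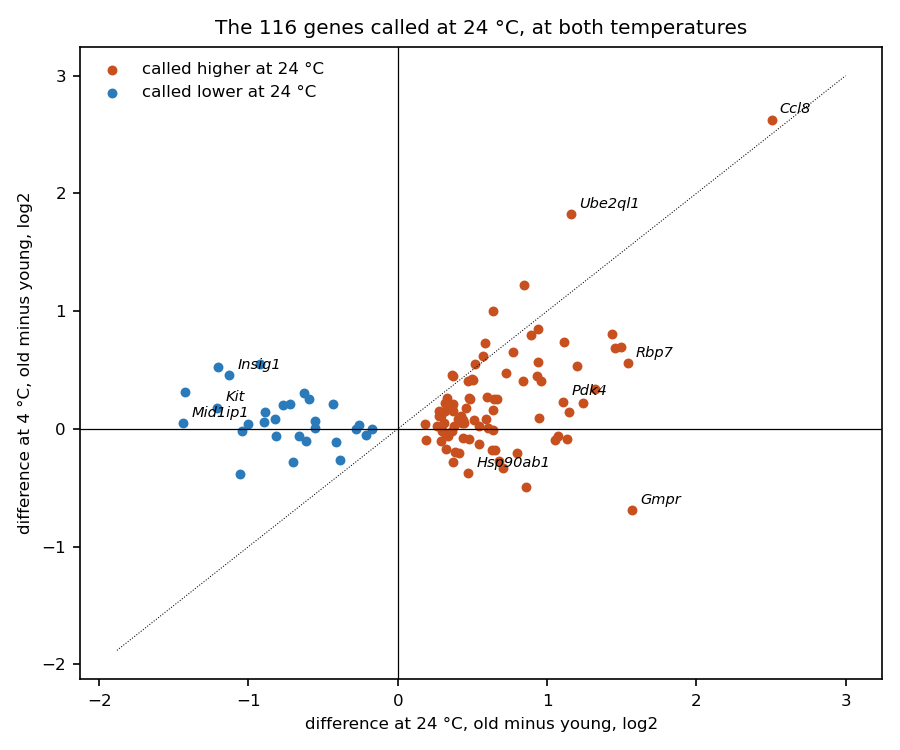
Difference between old and young mice at 24°C (horizontal axis, log2) and at 4°C (vertical axis, log2) for the 116 genes called at 24°C, with those called higher in orange, those called lower in blue and a dotted line where both differences are equal. Ccl8 lies near the line, and the genes called lower scatter around 0 at 4°C.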

How the data were processed

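RNA-seq of mouse BAT was analysed from the deposited table of log2(TPM + 1) values, 1 column per library, which the authors made by aligning reads with Rsubread and normalizing with edgeR and limma (limma 3.20.9 and R 3.2.2 in the submitters' processing notes); the methods name GRCh38, a human build, although the genes are those of mouse, and the counting step is not given in the sources used here. No library was left unmapped. The scale was checked from low values. Since genes in a library take whole multiples of what 1 read is worth, whole reads were recovered for 15285 of 16957 genes (within 0.02 of a whole number) and give depth; intervals cover the spread between libraries, which may include technical spread.

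Old and young libraries were compared with limma 3.58.1 in R 4.3.3 (lmFit and eBayes, Benjamini-Hochberg over all genes tested), and genes were called below 0.25, the q that titles the study's lists of cold-regulated genes, or below 0.05, which its text gives for genes in pathway analysis, as an alternative. Differences are on the log2(TPM + 1) scale, which understates changes of low genes. Exact permutation tests used scipy 1.17.1. A simulation of this comparison gave 200 of 16233 genes a log2 change of 1: 93.5% of them were called, beside 71 genes left as they were. The changed genes were drawn only from those with a higher mean level, and noise was independent between libraries and genes. The share therefore does not hold for low genes, nor where libraries deviate together. The same simulation called 33% of changed genes for the cold contrast (16134 genes) and 33.5% for the interaction (16957 genes). Under its settings the calls there are less complete.

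Genes were named by a rule: the 12 largest rises and 12 largest falls among genes called, without overlap and with the same direction when kind of library is in the model (symbols starting with Gm or ending in Rik or -ps left out), up to 4 called genes per list, 12 genes always named and the 5 called genes with the strongest interaction. The check of direction could not fail, since each group holds 1 library with low Gm20594. The members and the 32 lists were chosen with earlier results of these data known, and 6 lists were drawn up after the values were seen. Positions come from GENCODE M21 (GRCm38), matched by Ensembl ID for 16188 of the genes tested. Symbols are those of the table. A few genes that are in the counts are not reported here by name. Alternatives were kind of library or depth as a covariate, libraries with high Gm20594 alone, a filter at a mean of 1 TPM, a pseudocount of 0.1, median centring, quantile normalization, other priors and weights, all 19 libraries together, a block by replicate number, leaving out each library, and voom on the recovered reads (chosen after seeing the data). Same-numbered old and young libraries deviated with correlations from -0.21 to 0.23, and the numbers were not taken as pairs in the fit reported. Whether replicate number follows processing was not tested.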

Additional observations from a re-analysis of the deposited data

Results flagged for a closer look

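Among 104 groups of 5 libraries (47 named genes and 5 library measures in old and in young mice), 12 had a highest or lowest library farther from the rest than Dixon's 95% critical value of 0.71 allows, where chance gives about 1 in 20. On the log2(TPM + 1) scale, old replicate 3 was lowest for Insig1 (4.60, group median 5.86), Hist2h2be (0.929, median 1.68) and Ucp1 (9.88, median 10.99). Old replicate 1 was highest for Hephl1 (1.07, median 0.34), and old replicate 4 lowest for Thbs1 (0.628, median 0.96). Young replicate 4 was lowest for Hist2h2be (2.24, median 2.42). Cdkn2a stood at 0.16 in young replicate 3 and at 0.063 in old replicate 5, with all other libraries of both groups listed at 0. Of the library measures, old replicate 5 had 7804281 recovered reads against a median of 1861608. Gm20594 stood at 11.29 in young replicate 2 and at 11.26 in old replicate 1, on the log2(TPM + 1) scale, against medians of 15.27 and 15.25. Skeletal muscle markers summed to 290.7 TPM in old replicate 4, with a group median of 36.2 TPM.

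Of the 47 named genes, 5 had an age difference that differed between room temperature and cold by the interaction test (limma, adjusted p = 0.243 for each). These 5 were named for their interaction, among genes chosen by the room temperature differences that enter it. The difference between the age contrasts, cold minus room temperature, was 1.48 for Mid1ip1, 1.39 for Kit, 1.03 for Atg9b, 0.97 for Dixdc1 and 0.93 for Dusp14 on the log2 scale.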

How the results depend on the processing

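The counts of genes called depended strongly on the processing (87 higher and 29 lower as reported). The direction of each of the 116 genes did not change in any fit, but many of the fits could not change it. Kind of library, the replicate block, other priors, the filter by mean and the fit of all 19 libraries leave each difference as it was. A gene without overlap cannot reverse when libraries are left out. Counts of higher and lower genes were 154 and 110 with kind of library as a covariate, 46 and 28 in libraries with high Gm20594 alone, 209 and 42 with depth as a covariate, and 134 and 78 for genes with a mean of at least 1 TPM. They were 273 and 303 after median centring, 391 and 390 after quantile normalization, 96 and 51 with a trended and robust prior, 347 and 135 with weights per library, and 51 and 24 with all 19 libraries in the fit. By limma voom on the recovered reads, chosen after seeing the data, they were 946 and 419 among 13411 genes, with all 116 genes called again. In the fit reported, both counts were 0 at an adjusted p under 0.05, while by voom 149 genes were under it. Leaving out each library in turn gave 4 to 188 higher and 1 to 107 lower genes. The replicate block gave 14 and 9 genes, and the replicate block together with kind of library gave 70 and 78. Correlations of same-numbered libraries ranged from -0.21 to 0.23. They were negative for replicates 1 and 2, which differ in kind of library, and positive for replicates 3, 4 and 5. The closest pair, young replicate 2 and old replicate 1 (0.57), has different numbers. Replicate 5 was the deepest library in young and old mice (63.9% and 62.7% of the deepest in the series). Whether replicate number follows processing was not tested. The pseudo-F of 1.57 became 1.89 (exact permutation p = 0.0286) in libraries with high Gm20594 alone and ranged from 1.34 to 1.94 when a library was left out, passing 0.05 without young replicate 2 (1.67) or old replicate 1 (1.94). In the cold, kind of library as a covariate gave 226 higher and 4674 lower genes in place of 8 and 18, and for the interaction 2 and 7 in place of 10 and 8. The cause of these changes was not tested. Of the 36 named genes that were called, 36 were called again with kind of library as a covariate, 19 in libraries with high Gm20594 alone and 8 with the replicate block, and 3 to 34 when a library was left out. Depth limits the genes under 1 TPM, which make up 32 of the 116.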

Other observations

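The genes in the following 2 groups were put together after their values were seen, from those of the 116 called genes that are on no list, and are given as values (limma, adjusted p over all genes tested). The former encode proteins of autophagy, nutrient sensing and the hypoxia response. Gabarapl1, an ATG8 protein of autophagosome membranes, measured 30.6, 37.0, 33.9, 25.2 and 43.2 TPM in young replicates 1 to 5 and 57.1, 53.8, 117, 69.9 and 73.5 TPM in old replicates 1 to 5, with no overlap (log2 difference 1.07 ± 0.22, adjusted p = 0.215). Rragd, a GTPase that brings mTORC1 to the lysosome, averaged 0.534 ± 0.224 TPM in the young and 1.31 ± 0.142 TPM in the old libraries (log2 difference 0.60 ± 0.09, adjusted p = 0.134). Egln3, a prolyl hydroxylase that acts on HIF, averaged 2.15 ± 0.719 TPM in the young and 4.82 ± 0.954 TPM in the old libraries (log2 difference 0.90 ± 0.16, adjusted p = 0.174). Kdm3a, a histone demethylase, averaged 4.55 ± 0.747 TPM in the young and 6.87 ± 0.882 TPM in the old libraries (log2 difference 0.51 ± 0.11, adjusted p = 0.223). Prkab1, the β1 subunit of the energy sensor AMPK, went the other way, from 8.95 ± 1.96 TPM in the young to 4.67 ± 1.35 TPM in the old libraries, with overlapping libraries (log2 difference -0.82 ± 0.18, adjusted p = 0.24).

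The latter encode ion pumps and channels besides Kcnk3. Atp1b1, a β subunit of the sodium pump, measured 2.46, 2.57, 2.77, 2.84 and 2.73 TPM in young replicates 1 to 5 and 3.63, 4.24, 4.02, 4.69 and 4.65 TPM in old replicates 1 to 5 (log2 difference 0.51 ± 0.06, adjusted p = 0.0648). Its old libraries lay above the young ones, and it was called in 10 of 10 fits without 1 library. Ryr2, a calcium release channel of the endoplasmic reticulum, averaged 0.125 ± 0.106 TPM in the young and 0.696 ± 0.366 TPM in the old libraries (log2 difference 0.57 ± 0.13, adjusted p = 0.24). Cacna1a, a voltage-gated calcium channel, averaged 0.234 ± 0.0605 TPM in the young and 0.707 ± 0.268 TPM in the old libraries (log2 difference 0.46 ± 0.10, adjusted p = 0.223). Both had no overlap. Kcnk2, a potassium channel, averaged 0.164 ± 0.0440 TPM in the young and 0.454 ± 0.159 TPM in the old libraries (log2 difference 0.31 ± 0.07, adjusted p = 0.24). Kcnd2, a voltage-gated potassium channel, fell from 0.172 ± 0.0783 TPM in the young to 0.00808 ± 0.0131 TPM in the old libraries (log2 difference -0.21 ± 0.05, adjusted p = 0.24), on 1 to 26 reads per young and 0 to 1 per old library. Apart from Atp1b1 the means of these channels were below 1 TPM in both groups.

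Rorb, a nuclear receptor related to the clock regulators ROR, is also on no list. It measured 0.0702, 0.0488, 0.0743, 0.119 and 0.140 TPM in young replicates 1 to 5 and 0.544, 0.982, 0.879, 0.555 and 1.14 TPM in old replicates 1 to 5, on 4 to 30 reads per young and 13 to 241 per old library, with no overlap (log2 difference 0.73 ± 0.09, adjusted p = 0.0648).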
